A study of Mus musculus with 6 samples.

Results

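The SIRP receptors, their ligand Cd47, the adaptor Tyrobp and 4 further paired myeloid receptors were examined in the RNA of sorted bone marrow megakaryocytes (MKs). The group holds 10 genes of the 16579 in the deposited table, namely Klra2, Sirpa, Sirpb1a, Sirpb1b, Sirpb1c, Cd47, Tyrobp, Pirb, Pilra and Cd300a. The members were selected by name from these families with the genotype differences of these 6 libraries already known, so their genotype values are given as a description and are not used as evidence. MKs had been separated from bone marrow by fluorescence-activated cell sorting, and RNA was sequenced from 3-month-old mice in 6 libraries. Of these, 3 libraries were from Becn1 f/f mice, in which both copies of Becn1 carry loxP sites. The other 3 carry the label Becn1 f/f;Pf4-iCre and are called the Cre-labelled libraries here: these mice have the same floxed alleles together with a Cre recombinase driven by regulatory sequence of Pf4 (platelet factor 4), which is used to target the megakaryocytic lineage. The study describes sorting marrow MKs and platelets as CD41+ cells, without tying that gate to these RNA samples, and the sex of these mice is not given in the sources used here.

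Paired receptors are families of similar cell surface proteins in which some members inhibit and others activate. The inhibitory members, such as SIRPα (Sirpa), PIR-B (Pirb), PILRα (Pilra) and CD300a (Cd300a), carry tyrosine motifs (ITIMs) in long cytoplasmic tails that recruit the phosphatases SHP-1 and SHP-2. The activating members have short tails and signal through adaptors with activating motifs (ITAMs), of which DAP12, encoded by Tyrobp, is the partner of the SIRPβ proteins. CD47 is present on nearly all cells and, when bound by SIRPα on macrophages, restrains phagocytosis, including that of red cells and platelets. Klra2 encodes Ly49B, an inhibitory C-type lectin-like receptor of the Ly49 family that is known from myeloid cells, whereas most Ly49 receptors are known from natural killer (NK) cells.

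The library totals lay between 16467560 and 17156728 estimated read counts. Becn1 itself was measured at 127, 109 and 119 CPM (counts relative to the library total, scaled by TMM, the trimmed mean of M values) in Becn1 f/f mice 1, 2 and 3 and at 106, 104 and 109.7 CPM in the Cre-labelled libraries 1, 2 and 3, so the genotypes overlapped, and the log2 fold change, Cre-labelled over Becn1 f/f, was -0.15 with a standard error (SE) of 0.12. In the study's own assays, RT-qPCR found significantly less Becn1 mRNA in CD41+ marrow cells of Becn1 f/f;Pf4-iCre mice. The study also found no detectable Becn1 protein in their platelets. Of the MK markers, Itga2b, which encodes CD41, lay between 142 and 187 CPM. Pf4 was low, between 2.08 and 6.73 CPM. Mpig6b, a platelet inhibitory receptor, lay between 0.119 and 0.779 CPM and was below the expression filter. The name MK is therefore taken from the sample labels and not from these levels. The summed MK and platelet markers lay between 421 and 511 CPM, against 9604 to 17465 CPM for the summed neutrophil markers and 8543 to 14081 CPM for the summed monocyte and dendritic cell markers. These libraries therefore hold abundant RNA of myeloid genes. In bulk RNA a different number of cells of one type cannot be told apart from a different amount of RNA per cell. Fn1 made up 47.7% of the monocyte and dendritic cell sum. F13a1, of the same list, averaged 1745 CPM in Becn1 f/f mice and 2294 CPM in the Cre-labelled libraries. The cells that this RNA came from were not tested.

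Among the members, the order of levels was first compared in FPKM, fragments scaled for both transcript length and library size. Tyrobp was far above the others in Becn1 f/f mice, at 1118, 1363 and 851 FPKM. Pirb (144 ± 29.1 FPKM, SD, n = 3) and Sirpa (137 ± 7.35 FPKM, SD, n = 3) followed, and their ranges overlapped. Cd47 was next at 97.8 ± 2.28 FPKM (SD, n = 3), below the lowest Sirpa value and above the highest value of Cd300a. Cd300a averaged 50.4 ± 3.68 FPKM (SD, n = 3). Sirpb1c and Klra2 (17.3 ± 1.98 and 16.4 ± 1.71 FPKM, SD, n = 3) overlapped each other, as did Pilra and Sirpb1b (12.4 ± 1.90 and 11.4 ± 0.817 FPKM, SD, n = 3), and Sirpb1a was lowest at 4.20 ± 0.145 FPKM (SD, n = 3). In the Cre-labelled libraries the first 5 genes kept this order. Klra2, at 33.2 ± 8.001 FPKM (SD, n = 3), stood above Sirpb1c, with overlapping ranges, and Sirpb1b stood above Pilra without overlap.

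**Figure D1:**
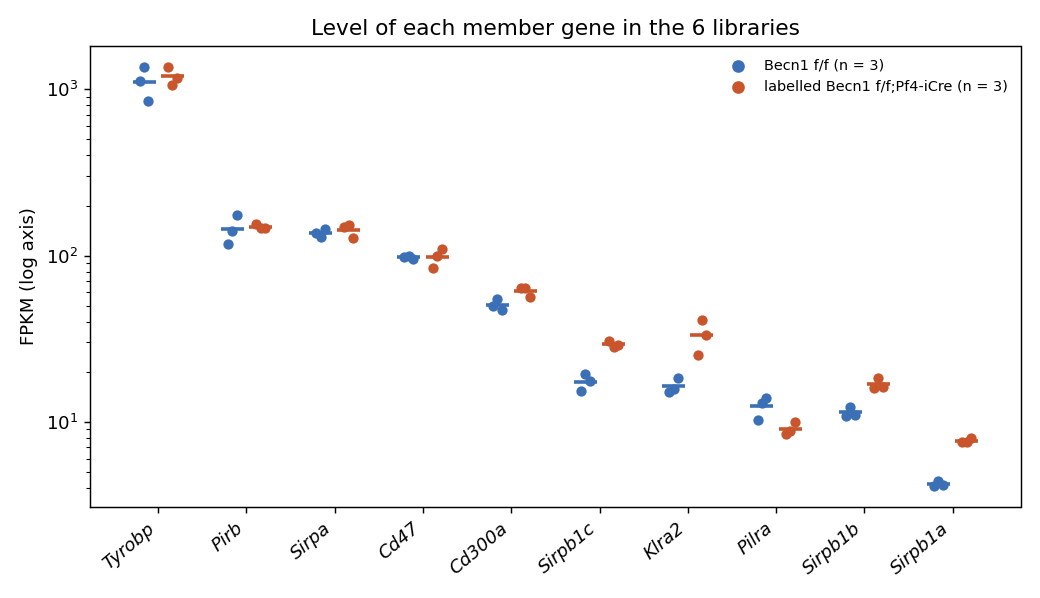
FPKM of the 10 members on a log axis, with 1 point per library, Becn1 f/f in blue and Cre-labelled libraries in orange, and a bar at each mean (n = 3). Tyrobp lies near 1111 and 1201 FPKM on average, and the orange points lie above all blue points for Klra2, Sirpb1a, Sirpb1b, Sirpb1c and Cd300a and below them for Pilra.

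Klra2 showed the largest difference among the members. It was at 20.2, 21.0 and 23.8 CPM in Becn1 f/f mice 1, 2 and 3 and at 35.3, 53.0 and 44.0 CPM in the Cre-labelled libraries 1, 2 and 3. Every library of the latter group was above every Becn1 f/f library, and library 2 was the highest. The means were 21.7 ± 1.87 and 44.1 ± 8.88 CPM (SD, n = 3 each), a ratio of 2.03 and a fitted log2 fold change of 1.02 (SE 0.17). Klra2 lies at chr6:131219223-131247362 on the minus strand in GRCm38, and none of the 1750 stretches of 50 bases in its longest coding transcript occurs in a transcript of another annotated gene, so its reads are not expected to be shared. It was also the main Ly49 gene in these libraries. The highest value of any of the other 10 Ly49 genes in the table was 3.07 FPKM, reached by Klra17 (Ly49Q), and Klra17 itself was at 2.66 ± 0.443 and 2.64 ± 0.477 FPKM in the 2 genotypes (SD, n = 3 each).

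The 250 bases before the start of Klra2 annotated by RefSeq (GRCm38.p6, chr6:131247363-131247612, minus strand) are shown because Klra2 differed most between the genotypes. The capitals mark the only match to GAGGAA, the core of the site bound by the myeloid factor PU.1, here on the reverse strand as TTCCTC and beginning 70 bases before the start.
Klra2: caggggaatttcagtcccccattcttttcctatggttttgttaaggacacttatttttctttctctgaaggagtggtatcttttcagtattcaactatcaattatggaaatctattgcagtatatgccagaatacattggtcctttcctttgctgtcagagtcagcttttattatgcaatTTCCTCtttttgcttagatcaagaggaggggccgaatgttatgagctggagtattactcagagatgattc
A match on either strand is present in 23.3% of 32851 promoter windows of the same length, so it is common, and a match describes letters and not binding. The C/EBP pattern TTGCNNAA was also found, on the reverse strand and beginning 79 bases before the start, and is present in 9.56% of windows. Of the other members with an entry in the table of promoters, Pilra, Pirb and Cd300a hold GAGGAA, while Cd47 and the 3 Sirpb1 genes do not hold it in this window.

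The 3 activating SIRPβ genes were higher together. Sirpb1a was at 3.95, 4.20 and 3.72 CPM in Becn1 f/f mice and at 7.25, 7.05 and 7.36 CPM in the Cre-labelled libraries, a ratio of 1.83 and a log2 fold change of 0.87 (SE 0.19). Sirpb1c was at 17.8, 21.6 and 19.0 CPM in Becn1 f/f mice and at 35.8, 31.0 and 32.3 CPM in the other genotype, with a log2 fold change of 0.76 (SE 0.14). Sirpb1b was at 13.1, 14.0 and 12.1 CPM against 19.6, 20.7 and 18.6 CPM, a ratio of 1.501 and a log2 fold change of 0.59 (SE 0.15), which lies at the threshold of 1.5-fold. For each of these genes the genotypes did not overlap, and the libraries of a genotype lay close together.

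The values of the 3 Sirpb1 genes cannot be fully separated from each other. They lie side by side on the minus strand of chromosome 3 in GRCm38, at chr3:15371653-15426520 (Sirpb1a), chr3:15495751-15575065 (Sirpb1b) and chr3:15795145-15848528 (Sirpb1c), and their deposited counts are not whole numbers. Of the stretches of 50 bases in the longest coding transcript, 44.2% of those of Sirpb1a, 67.4% of those of Sirpb1b and 57.6% of those of Sirpb1c also occur in another gene, in each case another Sirpb1 gene. The longest coding transcripts of Sirpb1a and Sirpb1b are 97.7% identical, and identity to the longer transcript of Sirpb1c is 54.0% for Sirpb1a and 54.5% for Sirpb1b, with gaps counted as differences. Counts were therefore also summed over the 3 genes, an addition made after the data were seen. The sum was 556, 692 and 617 counts in Becn1 f/f mice against 1046, 975 and 981 counts in the Cre-labelled libraries, or 36.5 ± 2.86 and 59.9 ± 2.42 CPM (SD, n = 3 each), and the log2 fold change was 0.72 (SE 0.13). The sum does not depend on how reads were divided among the copies, and its genotypes did not overlap either.

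The likeness of the 3 copies extends to the sequence before their starts. The 250 bases before each RefSeq start (GRCm38.p6, minus strand, chr3:15426428-15426677, chr3:15575066-15575315 and chr3:15848488-15848737) are printed to show it, and capitals mark stretches of at least 20 bases that are identical in all 3 windows.
Sirpb1a: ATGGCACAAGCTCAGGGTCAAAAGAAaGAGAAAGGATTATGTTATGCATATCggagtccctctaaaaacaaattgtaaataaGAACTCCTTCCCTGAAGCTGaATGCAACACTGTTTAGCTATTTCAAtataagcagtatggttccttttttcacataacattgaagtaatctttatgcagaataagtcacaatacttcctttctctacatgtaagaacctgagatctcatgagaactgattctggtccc
Sirpb1b: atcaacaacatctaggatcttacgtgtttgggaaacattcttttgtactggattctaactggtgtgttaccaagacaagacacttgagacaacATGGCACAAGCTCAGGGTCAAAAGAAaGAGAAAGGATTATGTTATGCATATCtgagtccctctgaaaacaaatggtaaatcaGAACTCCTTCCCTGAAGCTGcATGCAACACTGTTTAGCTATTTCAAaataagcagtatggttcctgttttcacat
Sirpb1c: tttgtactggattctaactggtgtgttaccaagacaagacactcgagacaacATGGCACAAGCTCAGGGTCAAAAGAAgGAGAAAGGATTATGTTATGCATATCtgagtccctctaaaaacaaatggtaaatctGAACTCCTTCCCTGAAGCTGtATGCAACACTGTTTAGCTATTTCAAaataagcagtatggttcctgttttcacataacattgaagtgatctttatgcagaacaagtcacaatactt
Each window holds 4 such stretches with 96 bases in all. They begin at the first base of the Sirpb1a window and further in for Sirpb1b and Sirpb1c. The Sirpb1a and Sirpb1c windows reach into the gene spans given above. Those spans come from another annotation (GENCODE M21), and the RefSeq starts of these genes lie inside them. The offsets and the aligned lengths therefore depend on the annotated starts. In local alignments, 157 bases of Sirpb1a and Sirpb1b were 95.5% identical, 198 bases of Sirpb1a and Sirpb1c were 94.9% identical, and 209 bases of Sirpb1b and Sirpb1c were 97.6% identical.

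The inhibitory receptor Sirpa, on chromosome 2 (chr2:129592835-129632228, plus strand, GRCm38), did not separate the genotypes. It was at 478, 439 and 477 CPM in Becn1 f/f mice and at 524, 512 and 437 CPM in the Cre-labelled libraries, and the lowest value of all was in library 3 of the latter. Its log2 fold change was 0.08 (SE 0.13), and none of its stretches of 50 bases occurs in another gene. Pirb, the inhibitory receptor of the PIR family that binds MHC class I, was at 291, 332 and 408 CPM against 387, 346 and 348 CPM, with overlapping genotypes and a log2 fold change of 0.07 (SE 0.15). Of its stretches of 50 bases, 37.3% occur in other genes, chiefly Gm14548 and Pira2, so its level is less certain.

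Cd300a and Pilra, unlike Sirpa and Pirb, separated the genotypes, in opposite directions and by less than the inhibitory receptor gene Klra2. Cd300a, which binds phosphatidylserine and phosphatidylethanolamine on dying cells, was at 82.5, 87.5 and 74.3 CPM in Becn1 f/f mice and at 108, 103 and 90.4 CPM in the Cre-labelled libraries. The groups did not overlap, though the gap between 87.5 and 90.4 CPM was narrow, and the log2 fold change was 0.30 (SE 0.13). Pilra was at 23.9, 29.0 and 30.6 CPM against 19.8, 19.6 and 22.4 CPM, again without overlap, and was the only member lower by more than its standard error, with a log2 fold change of -0.43 (SE 0.15). Neither reached a 1.5-fold difference. In GRCm38, Cd300a lies at chr11:114890041-114904654 on the plus strand, Pilra at chr5:137821952-137836281 and Pirb at chr7:3711409-3720391, both on the minus strand.

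Cd47, the ligand of SIRPα, differed between the genotypes by less than the spread between libraries. Its values were 241, 225 and 215 CPM in Becn1 f/f mice against 204, 225 and 241 CPM in the Cre-labelled libraries, with a log2 fold change of -0.02 (SE 0.13). Tyrobp varied more between libraries than between genotypes. It was at 287, 363 and 215 CPM against 383, 262 and 294 CPM, so the groups overlapped widely, and the log2 fold change was 0.12 (SE 0.20). The higher level of the SIRPβ genes was thus measured beside a Tyrobp level with no detectable difference at this spread. In GRCm38, Cd47 lies at chr16:49800533-49915010 and Tyrobp at chr7:30413760-30417585, both on the plus strand.

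All 10 members passed the expression filter. Read by the thresholds of the study's methods (a fold change of at least 1.5 and an unadjusted P under 0.05, in edgeR's quasi-likelihood test), 4 of the 10 were differentially expressed genes (DEGs), all 4 upregulated (Klra2, Sirpb1a, Sirpb1b and Sirpb1c), and none was downregulated. Among all 12256 tested genes, 1.36% were upregulated and 0.938% downregulated DEGs. Because the members were chosen with this contrast known, nothing is read from the difference. In 6 of the 10 the CPM values of the genotypes did not overlap, against 10.6% of all tested genes. After adjustment over all tested genes edgeR called no member at 0.05, against 0.0408% of all tested genes, while 6 members had an unadjusted P under 0.05, as did 6.31% of all tested genes. limma-voom also gave none, and DESeq2, the tool named by the study, gave 2, Klra2 and Sirpb1c, against 0.61% of the genes to which it gave an adjusted p. The median log2 fold change was 0.21 over the members and -0.02 over all tested genes. These backgrounds moved with single libraries: without Becn1 f/f mouse 1 there were 258 upregulated DEGs in place of 167, and without Becn1 f/f mouse 2 there were 199 downregulated DEGs in place of 115. Of all DEGs 59.2% were upregulated, 70.5% when log2(FPKM + 1) was used and 49.2% without Becn1 f/f mouse 2.

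**Figure D2:**
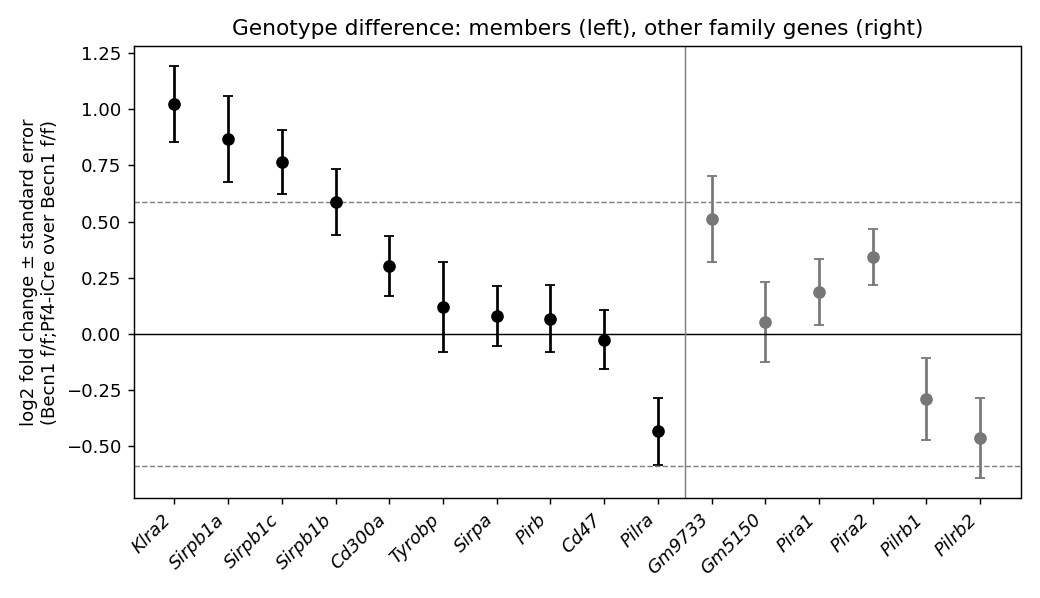
Log2 fold change of the Cre-labelled libraries over Becn1 f/f from edgeR, with bars of 1 standard error (3 libraries per genotype), for the 10 members on the left and 6 other genes of the SIRP, PIR and PILR families on the right. Dashed lines mark 1.5-fold; 4 members lie at or above the upper line, from 0.59 to 1.02, and no gene shown lies below the lower line.

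For each receptor family, selected activating genes were then set against the inhibitory gene as a ratio of FPKM within a library. The ratio of the summed Sirpb1 genes to Sirpa was 0.222, 0.276 and 0.225 in Becn1 f/f mice against 0.367, 0.355 and 0.414 in the Cre-labelled libraries. The groups did not overlap, and the means were 0.241 ± 0.0307 and 0.379 ± 0.0310 (SD, n = 3 each). For Pira1 and Pira2 over Pirb the means were 0.348 ± 0.0564 and 0.394 ± 0.0317 (SD, n = 3 each), and for Pilrb1 and Pilrb2 over Pilra they were 3.11 ± 0.896 and 3.20 ± 0.261 (SD, n = 3 each). Both overlapped between the genotypes. The ratio to Pirb leaves out Lilra6, another activating receptor gene, at 29.5 and 35.0 FPKM on average against 11.4 and 12.8 FPKM for Pira1. It is therefore not the balance of the whole family. The sharing of stretches between Pirb and other genes, chiefly Gm14548 and Pira2, limits this ratio too. The pairs were chosen after the values had been seen, and the Pilrb genes, like Pilra, were on the lower side in the Cre-labelled libraries (log2 fold changes of -0.29 and -0.46, SE 0.18 each, edgeR adjusted p 0.89 and 0.69). Pira1 and Pira2 had log2 fold changes of 0.19 and 0.34 (SE 0.15 and 0.12, edgeR adjusted p 0.92 and 0.59).

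**Figure D3:**
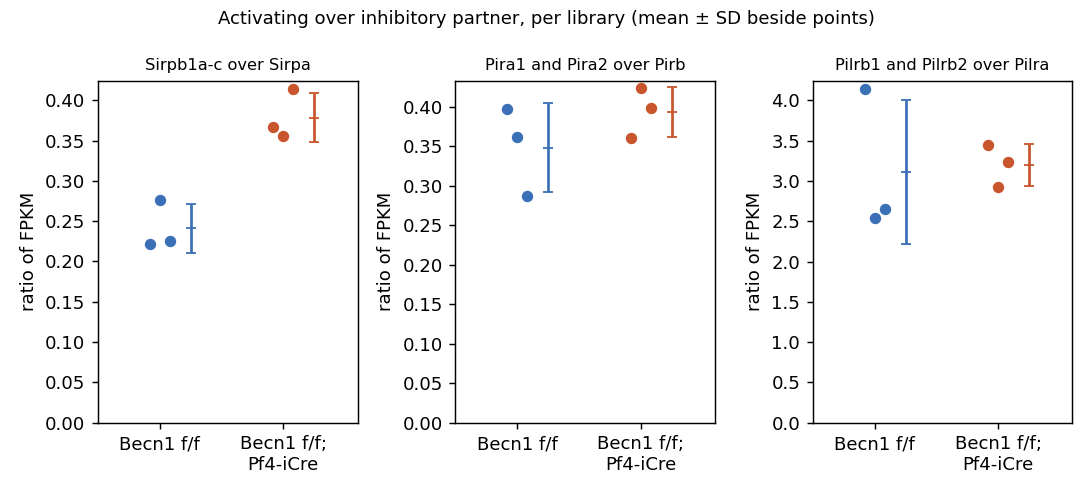
Ratio of the FPKM of activating to inhibitory receptor genes in each library (points), with the mean and SD beside them (n = 3 per genotype). The genes are the Sirpb1 genes over Sirpa (SIRP), Pira1 and Pira2 over Pirb (PIR), and Pilrb1 and Pilrb2 over Pilra (PILR). The SIRP ratio lies between 0.222 and 0.276 in Becn1 f/f mice and between 0.355 and 0.414 in the other libraries, and the other 2 ratios overlap.

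The other genes of these pathways were taken from 8 lists. Without the members they hold 113 tested genes, of which 5 were upregulated and 3 downregulated DEGs, and 105 passed in neither direction. The median log2 fold change was 0.03, against -0.02 over all tested genes. After adjustment edgeR and limma-voom called none of them at 0.05. At an unadjusted P under 0.05 there were 11 higher and 6 lower, and DESeq2 gave 3 with an adjusted p under 0.05 (Slc4a1, Btla and Clec7a). The number of upregulated DEGs was 2 without Cre-labelled library 2 and 8 without Becn1 f/f mouse 1.

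Downstream of the receptors no DEG was found. None of the 14 tested phosphatases and adaptors of inhibitory receptors and none of the 21 tested ITAM adaptors and kinases was a DEG. Ptpn6 and Ptpn11, which encode SHP-1 and SHP-2, had log2 fold changes of -0.03 and -0.03 (SE 0.15 and 0.13). Syk, the kinase that binds phosphorylated ITAMs, had 0.01 (SE 0.14), and the adaptor genes Fcer1g and Hcst had 0.08 and -0.07 (SE 0.17 and 0.23). Lyn, a Src family kinase that phosphorylates both kinds of motif, was named after its values were seen. It was between 336 and 338 CPM in Becn1 f/f mice and between 430 and 461 CPM in the other genotype, a log2 fold change of 0.41 (SE 0.12, edgeR adjusted p 0.455), below the 1.5-fold threshold.

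Among the 25 tested activating receptors that pair with ITAM adaptors, 2 were upregulated DEGs. Clec7a (dectin-1, a receptor for fungal glucans, whose own tail carries its motif) rose from 196, 156 and 126 CPM to 296, 334 and 203 CPM, a log2 fold change of 0.80 (SE 0.20, edgeR adjusted p 0.32). Klrk1, which encodes NKG2D, rose by 0.66 on the log2 scale (SE 0.19, edgeR adjusted p 0.40), at 5.81 to 6.61 CPM in Becn1 f/f mice against 8.15 to 10.97 CPM in the other libraries, and fell short of 1.5-fold without Cre-labelled library 2, on log2(FPKM + 1) and after a correction for GC content and length. The DAP12 partners Trem1, Trem2 and Clec5a had log2 fold changes of 0.26, 0.24 and -0.19 (SE 0.20, 0.28 and 0.13). None of these 3 was a DEG, and only Clec5a did not overlap between the genotypes. Trem3 of the same list, named after its values were seen, was lower without overlap. It was at 44.1, 43.3 and 41.0 CPM against 30.0, 27.4 and 35.3 CPM (log2 fold change -0.47, SE 0.14, edgeR adjusted p 0.453) and was not a DEG. Over the whole list 17 genes were higher and 8 lower.

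Of the 21 tested inhibitory receptors of myeloid and lymphoid cells outside the members, 1 was a DEG. Btla, a receptor for HVEM, rose from 37.4, 43.9 and 57.7 CPM to 62.1, 98.7 and 77.3 CPM, a log2 fold change of 0.78 (SE 0.20, edgeR adjusted p 0.32). Lilrb4a, Lair1 and Cd300lf, which like Sirpa and Pirb encode receptors with ITIMs, had log2 fold changes of 0.17, 0.09 and -0.20 (SE 0.18, 0.13 and 0.17). Cd244a, Fcgr2b and Cd72 of this list, named after their values were seen, did not overlap between the genotypes. Their log2 fold changes were 0.47, 0.30 and -0.43 (SE 0.14, 0.13 and 0.15, edgeR adjusted p 0.455, 0.741 and 0.554). Of the 2 other tested SIRP family genes, neither a DEG, Gm9733 had a log2 fold change of 0.51 (SE 0.19, edgeR adjusted p 0.64) and Gm5150 one of 0.05 (SE 0.18). Becn1 f/f mouse 1, at 15.98 CPM, was near the 16.8 to 18.5 CPM of the other genotype for Gm9733, while mice 2 and 3 were at 10.5 and 10.2 CPM.

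Of the 11 tested Ly49 and related NK receptor genes other than Klra2, 2 were DEGs, Klrk1 and Klri2. Klri2, which encodes an NK receptor of the KLRI family, was near the limit of detection, at 0.815 to 1.41 CPM and 1.68 to 3.01 CPM (log2 fold change 0.99, SE 0.35, edgeR adjusted p 0.57). Without Cre-labelled library 2 its log2 fold change was 0.66 and on log2(FPKM + 1) it was 0.28, and it was a DEG in neither. Of the 12 NK and T cell markers, the defining NK cell genes Ncr1 (0.345 to 0.846 CPM) and Klrb1c (0.690 to 2.48 CPM) were low, whereas Nkg7 lay between 30.6 and 58.5 CPM and Gzmb between 9.53 and 67.2 CPM. The sum of the list was 77.0 to 139.9 CPM in Becn1 f/f mice against 84.0 to 108 CPM, with overlap. Klrb1f, an NK receptor gene of the list above, was at 44.2 to 54.1 CPM over both genotypes. Nkg7, Gzmb and Klrb1f were named after their values were seen, and the part of NK cells in the Klra2 level was not tested.

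Among ligands and CD47 partners, 3 red cell genes were downregulated DEGs and 1 ligand gene was an upregulated DEG. Slc4a1 (band 3), Rhag and Rhd, proteins of the red cell membrane complex that CD47 belongs to, were the 3 downregulated DEGs of the pathway lists. Slc4a1 fell from 34.4, 25.2 and 33.1 CPM to 9.64, 16.46 and 14.8 CPM (log2 fold change -1.18, SE 0.20, edgeR adjusted p 0.089), and Rhd and Rhag were at 2.20 CPM or below in all libraries. Rhag was a DEG in 9 of 15 alternatives and not with DESeq2, on log2(FPKM + 1), or without Becn1 f/f mouse 1 or 2 or Cre-labelled library 1 or 2, where its log2 fold change lay between -0.97 and -0.40. Of the erythroid markers, 14 of 14 tested were lower and 7 were downregulated DEGs, but Slc4a1 and Rhag are themselves on that list. The part of erythroid cells in these values was not tested. The glutaminyl cyclase gene Qpctl, whose product modifies CD47 at the SIRPα binding site, had a log2 fold change of -0.21 (SE 0.15). Its genotypes did not overlap, though the gap between 13.43 and 13.36 CPM was narrow. Lrp1 of the partner list, named after its values were seen, had 0.46 (SE 0.19, edgeR adjusted p 0.73). Its genotypes overlapped, and it was not a DEG. Thbs1, which encodes the CD47 ligand thrombospondin-1, had a log2 fold change of 0.03 (SE 0.31). H2-K1 and B2m, which encode MHC class I, the ligand of PIR-B, had 0.08 and 0.24 (SE 0.14 and 0.18). Clec2i, a C-type lectin ligand of NK receptors, was the only upregulated DEG of the ligand list (log2 fold change 0.78, SE 0.23, edgeR adjusted p 0.44), and it fell short of 1.5-fold without Cre-labelled library 2.

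The cell type markers differed between the genotypes as well. Of the 13 tested monocyte and dendritic cell markers 11 were higher in the Cre-labelled libraries, with 3 upregulated DEGs (Cx3cr1, Flt3 and Cd209a) and a median log2 fold change of 0.39. In the edgeR test 7 had an unadjusted P under 0.05, all higher. Ly6c2, Irf8, Itgax, Bst2 and Xcr1 hardly differed, with log2 fold changes of 0.09, 0.01, -0.05, 0.02 and -0.02 (SE 0.16, 0.18, 0.14, 0.20 and 0.38). Over all 12256 tested genes, 5579 were higher and 6677 lower. The sum of the monocyte and dendritic cell list was 8543 to 9815 CPM in Becn1 f/f mice against 11299 to 14081 CPM in the other libraries, a ratio of 1.37 without overlap, and Fn1 made up 47.7% of it. Of the 13 tested macrophage markers 12 were higher, 4 of them DEGs (C1qc, Mrc1, Cd163 and Siglec1), and their sum was 830 to 884 CPM against 904 to 1111 CPM, a ratio of 1.15. Among these DEGs the log2 fold change was 1.26 for Mrc1, 1.00 for Siglec1, 0.80 for C1qc and 0.70 for Cd163 (SE 0.19, 0.36, 0.36 and 0.20). In CPM, the largest ratios of these lists were 2.39 for Mrc1, 2.01 for Siglec1 and 1.90 for Cd209a, beside 2.03 for Klra2 and 1.64 for the summed Sirpb1 genes. The defining macrophage genes Csf1r, Adgre1 and C1qa had log2 fold changes of 0.26, 0.00 and 0.21 (SE 0.16, 0.19 and 0.38). The neutrophil sum was 12355 to 17465 CPM against 9604 to 12878 CPM, with overlap. Of the 16 markers 15 were lower, 1 of them a DEG (Mmp9), and 7 had an unadjusted P under 0.05 in the edgeR test, all lower. No gene of these lists was at 0 in all libraries. Over Cre-labelled libraries 1, 2 and 3 the monocyte sum was 14081, 12709.5 and 11299 CPM. In the same order the Sirpb1 sum was 62.7, 58.8 and 58.2 CPM, and Klra2 was 35.3, 53.0 and 44.0 CPM. Single markers of the list peaked in different libraries. Fn1 was highest in library 1 (7105, 6186 and 5287 CPM) and Ccr2 in library 2 (689, 974 and 837 CPM). The part of these cell types in the receptor values was not tested.

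The remaining marker lists overlapped between the genotypes in their sums, except for the erythroid one (447 to 711 CPM against 339 to 444 CPM). The MK and platelet sum was 421 to 511 CPM against 426 to 488 CPM, and 1 of its 14 tested genes, Pf4, was a DEG, at a log2 fold change of -1.01 (SE 0.29, edgeR adjusted p 0.42). NK and T cell markers had 0 DEGs of 10 in the edgeR test, with 1 of them lower at an unadjusted P under 0.05. B cell markers had 1 downregulated DEG of 10 (Igll1), endothelial and stromal markers 1 of 7 (Kdr), and markers of mast cells, basophils and eosinophils 0 of 10, none of them with an unadjusted P under 0.05.

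**Figure D4:**
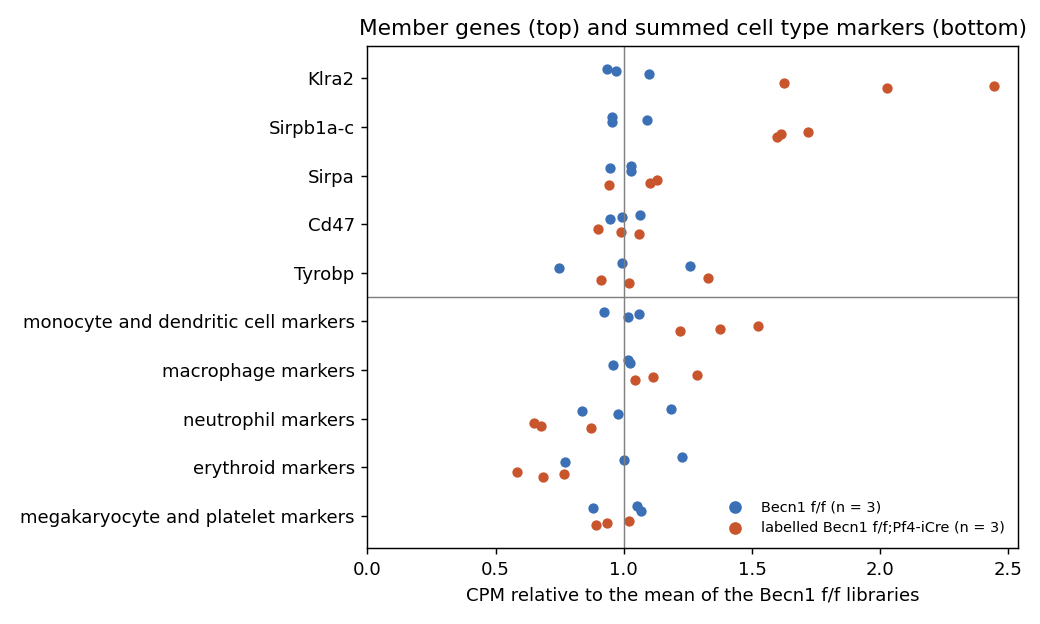
CPM in each library relative to the mean of the 3 Becn1 f/f libraries, for Klra2, the summed Sirpb1 genes, Sirpa, Cd47 and Tyrobp (top) and for the sums of 5 marker lists (bottom). Klra2 reaches 1.63 to 2.44 and the Sirpb1 sum 1.596 to 1.72 in the Cre-labelled libraries, where the monocyte and dendritic cell sum reaches 1.22 to 1.52.

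The genes whose profile over the 6 libraries was most like that of Klra2, by Pearson correlation of log2 CPM, were Atg4c (0.996), Lifr (0.989), Emsy (0.989), Tenm4 (0.989) and Gvin1 (0.985), and 44 tested genes had a correlation above 0.95. For Tyrobp they were Prune2, Rps9, Sod1, Ndufa6 and Rpl19, between 0.991 and 0.995, with 87 genes above 0.95. The 6 points share the genotype difference and the library scaling, and the correlations are given as a description.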

How the data were processed

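RNA of sorted MKs was measured in 6 libraries, 3 per genotype, grouped by the sample labels. The authors filtered the reads and mapped them with HISAT; the submitters' notes list HISAT, Bowtie2 and the build GRCm39 (mm39), and the counting tool and the annotation are not given in the sources used here. The authors deposited estimated counts, which are not normalized (10.3% to 11.3% of the values in a library have decimals), and FPKM values, scaled for transcript length and library size. Another 16 columns of per-sample values, 4 of them of a library that matches no sample here, and 8 columns of group means were not used.

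Estimated counts were rounded, filtered by edgeR's filterByExpr, and TMM-scaled, and the genotypes were compared by the quasi-likelihood test of edgeR 4.0.16 (R 4.3.3; genotype as the sole term, Benjamini-Hochberg adjustment over 12256 genes). Alternatives used DESeq2 1.42.0 and limma 3.58.1, including log2(FPKM + 1). CPM are TMM-scaled; standard errors are the log2 fold change over the root of F. The edgeR step was tested on simulated data. Total counts of 16467560 to 17156728 set the counting precision. The 3 libraries per genotype set the error, so p-values measure the spread between these samples. The labels say no more than that they are separate samples. Members and lists were chosen with earlier results of these data known. Of the genes on the lists, 12 are not in the table and were not analysed here. Genes named singly were the members, Becn1, DEGs of the pathway lists, preset signalling genes, ligands and defining markers. Others were named after their values were seen. These were the Gm, Pira and Pilrb genes, Klra17, Klrb1f, Nkg7, Gzmb, Lyn and Mpig6b. They also include Cd244a, Fcgr2b, Cd72, Trem3, Lilra6, Lrp1, Ly6c2, Irf8, Itgax, Bst2, Xcr1, Ccr2, Fn1, F13a1 and the DEGs of the marker lists. Positions are from GENCODE M21 on GRCm38 and promoters from RefSeq (GRCm38.p6), found for 8 of the 10 members, so no position was taken from the authors' build.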

Additional observations from a re-analysis of the deposited data

How the results depend on the processing

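Klra2, the 3 Sirpb1 genes, Sirpa, Pilra and Cd300a had the same sign of log2 fold change in all 17 alternatives; Pirb had it in 16 and Cd47 and Tyrobp in 15, the exceptions being fits that left out 1 library. Across the fits that each left out 1 library, Klra2 lay between 0.87 and 1.16, Sirpb1a between 0.82 and 0.91, Sirpb1b between 0.53 and 0.64 and Sirpb1c between 0.70 and 0.84. Klra2, Sirpb1a and Sirpb1c passed the DEG thresholds in all 17, and Sirpb1b, at 1.501-fold, in 10. With a correction of each library for GC content and transcript length, added after the data were examined because fold changes ran with GC content (Spearman -0.34 over genes, whose values are not independent), Sirpb1b had 0.49 and Cd47 -0.13. With log2(FPKM + 1), Sirpb1a had 0.74.

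The 167 upregulated and 115 downregulated DEGs became 91 and 38 with limma on log2(FPKM + 1), and 96 and 41 when a mean FPKM of 1 was also required; upregulated DEGs of the pathway lists then numbered 3 in both. With at least 10 counts in every sample, the pathway lists had 1 downregulated DEG, as fewer genes were tested. With the adjusted p held under 0.05, edgeR called 5 genes up and 0 down, and 0 and 0 in the pathway lists. DESeq2 gave 69 and 2 at that threshold, and 2 and 1 in the pathway lists; at an unadjusted P under 0.05, edgeR gave 480 and 293. Leaving out 1 library gave 129 to 258 upregulated and 87 to 199 downregulated DEGs, and 2 to 8 and 2 to 4 in the pathway lists. The cause of these changes was not tested beyond the genes and libraries each setting drops.

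Both genotypes use replicate numbers 1 to 3, which did not pair the libraries. The deviations of same-numbered libraries correlated at 0.07, -0.28 and 0.20, and 1 of the 3 pairs correlated best with its own number. With the number as a replicate block there were 180 upregulated and 116 downregulated DEGs, and 5 and 3 in the pathway lists. Low levels of a few CPM or less, as for Klri2 and Rhd, limit precision at this depth.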
